A study of Mus musculus with 104 samples.

Results

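Muscle stem cells of adult calorie-restricted mice were followed through the day. They make up 32 arrays, 30.8% of those in the series, chosen by the array titles that name an adult animal on a restricted diet, and no measured value entered the choice. The arm holds 5 arrays at T0, 6 at T4, 5 at T8, 6 at T12, 5 at T16 and 5 at T20. The times are hours of the day in steps of 4 h, which the series' design text gives as Zeitgeber times, counted by convention from lights on. All mice of the series were C57B6/J mice with a Per1-Venus BAC transgene, a reporter of the clock gene Per1. The restricted mice received 30% less food for 25 weeks after 3 weeks of adaptation, in which food was lowered by 10% a week. They entered adaptation at 19 to 29 weeks of age and carry an age label of 47 to 57 weeks. The study set this arm beside adult mice on the control diet (22 arrays), aged mice under the same restriction (26 arrays, labelled 83 to 97 weeks) and aged mice on the control diet (24 arrays). The aged control arrays carry the same label of 83 to 97 weeks. The adult control arm had only 1 array at T20, and its arrays are titled adult but also labelled 83 to 97 weeks. The cells came from skeletal muscle. Neither the gate used to sort them nor the hour at which restricted mice were fed is given in the sources used here, so no value below is tied to a meal. Per the design text, each day of collection took a single mouse per diet group, and the mice of a day shared their time point. Differences between collection days therefore lie within the spread of a time point. The design text counts 4 mice per time and diet, fewer than the 5 or 6 arrays held here. The titles call the arrays biological replicates, and the p-values measure the spread between them.

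Values are log2 array intensities for 11853 genes. Arrays of the same time correlated at 0.940 to 0.980, no arrays were identical, and array medians lay between 4.81 and 4.96. Several markers of muscle stem cells were bright in the arm. Sdc4 averaged 12.2, Fgfr4 11.1, the myogenic regulator Myod1 10.7 and the lineage factor Pax7 9.86, while the calcitonin receptor Calcr stood at 6.01. The 2 brightest markers of some other cell types reached similar values, the fibroadipogenic progenitor genes Gsn at 10.8 and Dpt at 10.7, the smooth muscle genes Myh11 at 10.9 and Acta2 at 10.7, and the Schwann cell genes Pmp22 at 10.7 and Ncam1 at 10.2. Mbp followed at 10.1. Other markers of the same types were far dimmer, such as Col1a2 at 5.11, Pi16 at 4.71, Cnn1 at 5.51 and S100b at 6.09. Pdgfra, Adgre1, Itgam, Lyz2, Ptprc, Cd3e, S100a8 and Adipoq did not pass the filter on dim probe sets, nor did the myofibre genes Myh1, Myh2 and Myh4. Other markers of these types did pass. They included 11 of 15 myofibre markers, with Atp2a1 at 8.32 and Acta1 at 6.45, the macrophage marker Cd68 at 7.96, the lymphocyte marker Cd79a at 7.54 and the neutrophil marker S100a9 at 5.52.

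The circadian clock is a feedback loop of transcription. The activators Arntl (Bmal1) and Clock, or its relative Npas2, pair and bind E-boxes in the promoters of the Per and Cry genes, whose proteins then block the pair. Nuclear receptors of the Rev-erb family repress Arntl through ROR elements, where the Ror receptors activate it, and the factors Dbp, Tef and Hlf activate genes through D-boxes at which Nfil3 represses. Hormones, feeding and body temperature also reach peripheral cells and impose daily changes on genes outside the loop. Glucocorticoids, for example, rise in blood before the active phase and act through a receptor that binds DNA.

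The promoters of some clock genes hold elements on which this loop acts. RefSeq promoter windows (assembly GRCm38.p6, 250 bases before to 50 after the annotated start) were at hand for 14 of the 16 measured clock genes, and 9 of the 14 held at least one searched motif. The motifs, read on both strands, were the E-box CACGTG, its variant CACGTT, the D-box TTATGNAA, the ROR element TAGGTCA and the cAMP response element TGACGTCA. The windows of the 6 rhythmic clock genes of largest amplitude with a match are shown 5′ to 3′ on the gene's strand, with the matches in capitals. For Arntl only the stretch around its match after the start is shown (chr7:113207530-113207559, + strand). The others are the 250 bases before the start of Per3 (chr4:151044666-151044915, - strand), Hlf (chr11:90390918-90391167, - strand), Tef (chr15:81802423-81802672, + strand), Cry2 (chr2:92434070-92434319, - strand) and Per1 (chr11:69098699-69098948, + strand).
Arntl: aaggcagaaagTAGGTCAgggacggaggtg
Per3: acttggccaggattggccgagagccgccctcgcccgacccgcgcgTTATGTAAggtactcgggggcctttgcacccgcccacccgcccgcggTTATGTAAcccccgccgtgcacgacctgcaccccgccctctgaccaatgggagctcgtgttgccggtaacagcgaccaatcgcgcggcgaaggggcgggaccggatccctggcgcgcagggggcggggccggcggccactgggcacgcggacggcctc
Hlf: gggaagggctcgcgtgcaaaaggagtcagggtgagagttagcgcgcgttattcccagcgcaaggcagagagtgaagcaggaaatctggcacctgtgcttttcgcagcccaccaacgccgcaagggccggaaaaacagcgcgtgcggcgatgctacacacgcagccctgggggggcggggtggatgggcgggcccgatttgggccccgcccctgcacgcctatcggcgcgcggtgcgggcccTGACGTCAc
Tef: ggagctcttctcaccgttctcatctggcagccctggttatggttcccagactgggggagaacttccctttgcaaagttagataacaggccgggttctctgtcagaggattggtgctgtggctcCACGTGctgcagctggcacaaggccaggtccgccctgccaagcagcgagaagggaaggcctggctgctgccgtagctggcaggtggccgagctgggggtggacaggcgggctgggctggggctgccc
Cry2: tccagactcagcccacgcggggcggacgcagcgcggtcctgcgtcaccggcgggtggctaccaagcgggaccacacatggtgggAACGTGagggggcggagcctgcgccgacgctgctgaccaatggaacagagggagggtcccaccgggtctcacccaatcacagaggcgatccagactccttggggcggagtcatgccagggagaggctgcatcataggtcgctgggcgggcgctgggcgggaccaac
Per1: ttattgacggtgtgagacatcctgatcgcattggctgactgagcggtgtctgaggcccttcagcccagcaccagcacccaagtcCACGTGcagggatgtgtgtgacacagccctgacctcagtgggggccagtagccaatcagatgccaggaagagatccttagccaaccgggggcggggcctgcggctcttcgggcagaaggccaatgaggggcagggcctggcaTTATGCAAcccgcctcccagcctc
The capitals mark a ROR element in Arntl, the activator, and a pair of D-boxes in Per3. Hlf holds a cAMP response element 9 bases before its start, Tef an E-box, Cry2 the E-box variant, read from the other strand, and Per1 an E-box and a D-box. E-boxes were found in 4 of the 14 clock windows, D-boxes in 2, ROR elements in 2, the variant in 1 and the cAMP element in 1. The windows of Dbp, Nr1d2, Npas2, Clock and Rora held no match. Among all 27025 genes with a window, 8.09% held an E-box, 5.44% the variant, 3.99% a D-box, 2.97% a ROR element and 2.03% a cAMP response element. In the 2136 rhythmic genes with a window the shares were 12.3%, 5.71%, 2.43%, 2.43% and 3.09%, and in the 9543 tested genes with a window 11.6%, 6.40%, 2.56%, 2.31% and 3.32%. A match is a run of letters, and binding was not measured.

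Which genes follow the time of day was asked with a cosine of 24 h period. In limma's F test with Benjamini-Hochberg adjustment over all genes, 2650 of 11853 genes (22.4%) were rhythmic in adult calorie-restricted cells at an adjusted p below 0.05. Their amplitude, the distance from day mean to fitted peak on the log2 scale, had a median of 0.270, against 0.131 over all genes, which is a median range of 1.45-fold from trough to peak. In 202 genes the range reached 2-fold. The standard error of the peak time had a median of 1.01 h. Peaks were spread over the whole day, with 1323 rhythmic genes peaking between T0 and T12 and 1327 between T12 and T24. Sorted into windows of 4 h around the sampled times, 504 genes (4.25% of those tested) peaked around T0, 486 (4.1%) around T4, 396 (3.34%) around T8, 450 (3.8%) around T12, 354 (2.99%) around T16 and 460 (3.88%) around T20. By fitted peak, the window around T12 held 83 of the 202 genes of 2-fold or greater range, more than any other window. A cosine fitted to a gene that is low only at T0 also peaks near T12. A test of the 6 time-point means, which assumes no curve shape, called 2807 genes (23.7%), 2018 of them also rhythmic. By these means T0 was the most frequent highest time (629 genes) and the most frequent lowest time (631). T12 was highest in 399 and lowest in 430.

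**Figure D1:**
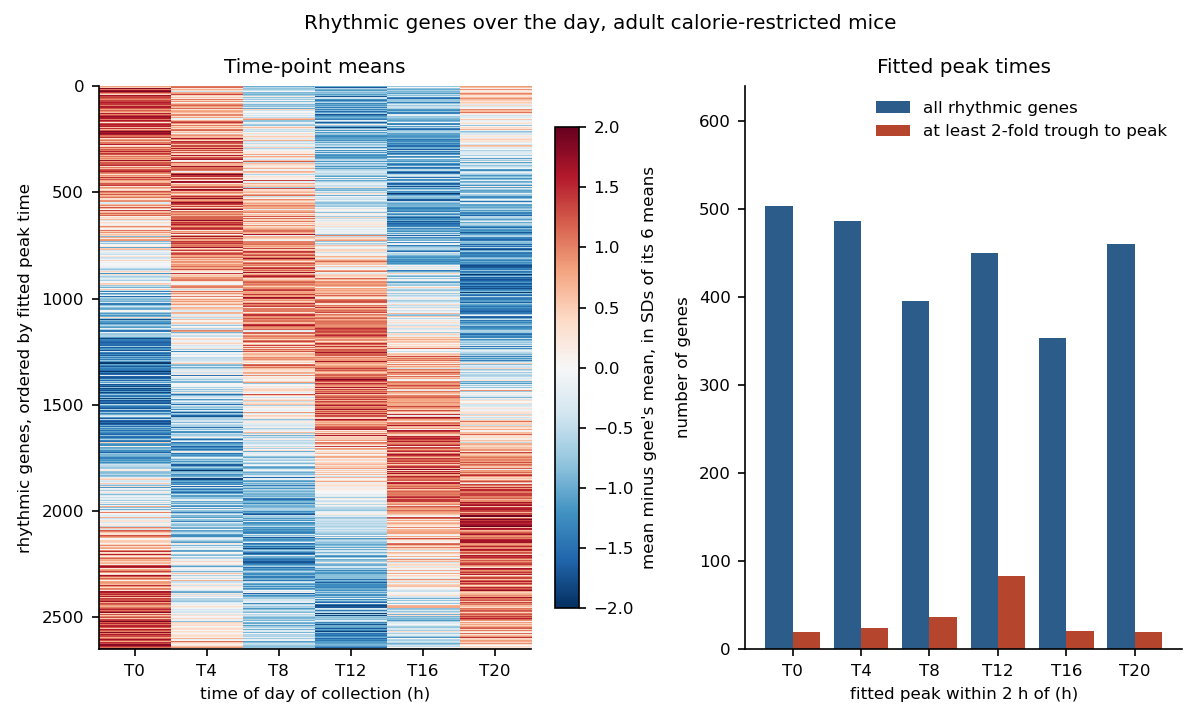
Left, the 2650 rhythmic genes as rows ordered by fitted peak time, with the colour giving each time-point mean minus the gene's own mean in units of the SD of its 6 means. Right, the number of rhythmic genes in each 4 h window of fitted peak time (blue) and of those with a range of 2-fold or more (red), which is largest around T12 with 83 genes.

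Of the gene lists examined, the clock genes had the highest rhythmic share. Of 16 measured, 15 were called (93.8%, against 22.4% of all genes), with a median amplitude of 0.49 against 0.131 over all genes. The exception was Ciart, a repressor of the loop, with an amplitude of 0.12 and an adjusted p of 0.25. Their fitted peaks lay between 7.46 h and 21.1 h, and none fell in the windows around T0 and T4. The activators of the loop and the D-box repressor Nfil3 peaked late. Nfil3 peaked at 17.8 h ± 0.571 (SE), Clock at 17.9 h ± 0.774, Arntl at 20.1 h ± 0.391, Rora at 20.3 h and Npas2 at 21.1 h ± 0.345. The other repressors and the output factors peaked from T8 to T12, beginning with Nr1d2 at 7.46 h ± 0.248, Bhlhe40 at 7.53 h, Dbp at 7.77 h ± 0.369 and Cry2 at 8.32 h. They went on with Per3 at 9.81 h ± 0.399, Tef at 10.1 h, Per1 at 10.2 h ± 0.574, Bhlhe41 at 10.9 h and Hlf at 10.98 h, and ended with Per2 at 12.1 h ± 0.484. Neighbours in this order differed by less than the sum of their standard errors, except for Cry2 and Per3, Hlf and Per2, Per2 and Nfil3, and Clock and Arntl. Rora, with an amplitude of 0.20 and an adjusted p of 0.0370, lost its call when any of 10 single arrays was left out.

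Arntl, the activator of the loop (probe set 1457740_PM_at), had the largest amplitude among the clock genes. Its log2 values at T20 were 7.61, 7.97, 7.51, 7.33 and 7.78. At T8 they were 5.80, 5.22, 4.95, 5.99 and 4.52. The T20 values lay above all T8 values, and the T4 and T12 arrays (5.22 to 6.21 and 5.08 to 5.91) stayed below those of T16 and T20. The fitted range was 5.26-fold (amplitude 1.20 ± 0.13 SE, limma adjusted p = 2.89e-11). Npas2, the other partner gene of this pair, fell from 8.18 ± 0.48 (SD) at T0 to 7.07 ± 0.11 at T8, with an amplitude of 0.64 ± 0.06 (adjusted p = 7.6e-14).

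Nr1d2, a Rev-erb receptor that represses Arntl (probe set 1416959_PM_at), ran opposite to it. Its values were 8.98, 9.30, 9.19, 9.56 and 9.38 at T8 and 7.57, 7.49, 6.997, 7.99 and 6.88 at T20. The T8 and T20 arrays did not overlap, and the fit had the smallest adjusted p of the clock genes (4.64e-22, range 3.81-fold). Dbp, a D-box activator under direct clock control, rose from 6.53 ± 0.65 at T0 to 8.60 ± 0.49 at T8, a fitted range of 4.18-fold (adjusted p = 2.48e-12). Per3, a repressor, reached 8.92 ± 0.46 at T12 and 6.96 ± 0.37 at T20, with a range of 4.03-fold (adjusted p = 3.25e-11).

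Per2, a repressor of the loop (probe set 1417602_PM_at), was lowest at T0, where its values were 6.86, 6.77, 5.85, 6.37 and 6.99. At T12 it stood at 8.06, 8.59 and 8.93 (lowest, median and highest of 6 arrays). Every T0 array lay below every other array of the arm, and the fitted range was 3.04-fold (adjusted p = 1.11e-08). Per1 was likewise lower in all T0 arrays than in all others, with means of 8.46 ± 0.17 at T0 and 9.53 ± 0.09 at T8. The mice carried a Per1-Venus BAC, and whether it adds to the Per1 signal was not tested.

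**Figure D2:**
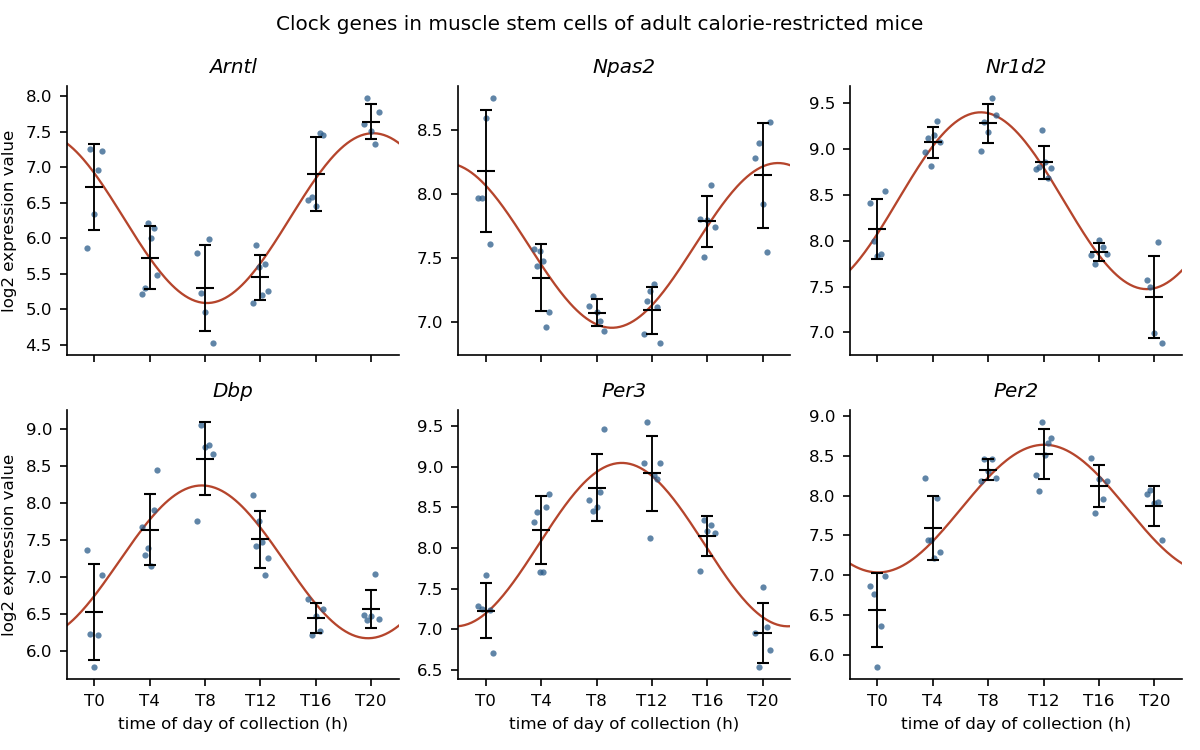
Log2 value of 6 clock genes against time of day in the adult calorie-restricted arm, with 1 point per array, black mean ± SD and the fitted cosine of 24 h period in red. Arntl and Npas2 are high from T16 to T0, while Nr1d2, Dbp, Per3 and Per2 are high from T8 to T12.

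The gene of largest amplitude in the arm was Sphk2, which makes the lipid signal sphingosine-1-phosphate (probe set 1426230_PM_at). Its values at T8 were 9.56, 9.96, 9.22, 9.42 and 9.65, and at T16 they were 6.56, 6.62, 6.59, 6.66 and 6.82. All T8 arrays lay above all other arrays of the arm, the only gene for which T8 did so, and the fitted range was 8.22-fold with a peak at 7.99 h ± 0.244 (adjusted p = 3.31e-22). Sphk2 and Dbp overlap in the RefSeq annotation and peaked 0.22 h apart. Whether the Sphk2 probe set also reads Dbp transcripts was not tested. Genes that act on clock proteins were less uniform, with 5 of 9 called (55.6%). Noct, a phosphatase of the cofactor NADP, peaked at 0.136 h (amplitude 0.36), the deubiquitinase Usp2 at 9.07 h (0.37) and Nono, an RNA-binding partner of Per proteins, at 5.97 h (0.20).

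Outside the clock the rhythmic genes with a fitted peak around T0 included those of collagen V and some of sterol synthesis. Called collagens were 8 of 36 (22.2%, near the background share). Col5a3, a chain of the fibrillar collagen V (T0 values 9.62, 9.79, 9.75, 9.89 and 9.50), stood at 8.30, 8.55 and 8.75 (lowest, median and highest of 6 arrays) at T12. It had no overlap between these times and peaked at 23.3 h ± 0.407 (amplitude 0.53 ± 0.06, limma adjusted p = 2.98e-11). Col5a1, which joins it in the same fibrils, peaked at 22.3 h with means of 9.73 ± 0.12 at T20 and 8.80 ± 0.26 at T12 (adjusted p = 2.03e-10). Col3a1 followed the same course with a peak at 20.5 h and an amplitude of 0.43, and the collagen chaperone Serpinh1 peaked at 22.3 h (0.34). Col26a1 differed from them, with a peak at 3.48 h and a departure from a cosine. Of the sterol and fatty acid synthesis genes, 7 of 19 were called (36.8%), 5 of them around T0. The mean over the 19 genes was highest at T20, at 7.44 ± 0.07 (SD), against 7.33 ± 0.15 at T0 and 7.37 ± 0.12 at T4. Srebf2, the transcription factor of sterol synthesis, peaked at 1.13 h (amplitude 0.32), its inhibitor Insig1 at 0.779 h, the fatty acid elongase Elovl6 at 22.3 h (0.49) and the sterol enzymes Cyp51 at 22.7 h and Sc5d at 23.4 h.

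Scd1, the desaturase that makes monounsaturated fatty acids, was apart from these with a peak at 17.4 h ± 0.535. Its values were 9.25, 9.50, 9.83, 9.27 and 9.70 at T16 and 8.49, 8.52, 8.39, 8.50 and 8.51 at T8, with no overlap between these times (amplitude 0.49 ± 0.07, adjusted p = 4.86e-07). The rhythmic genes of largest amplitude around T0 were the cadherin Cdh4 (0.69, from 7.74 ± 0.41 at T0 to 6.58 ± 0.17 at T16), the plasminogen activator Plat (0.69), Iqsec3 (0.66), Spg21 (0.62), the uncharacterised 2610307P16Rik (0.60) and the myogenic factor Myog (0.68). Wnt4, a secreted Wnt ligand, and the Wnt co-receptor Lrp5 also peaked here, at 22.7 h and 22.3 h. The receptor Fzd8 of the same pathway peaked at 13.96 h, on the opposite side of the day, and 8 of 24 Wnt pathway genes were called (33.3%).

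Around T4 the rhythmic genes included those of fatty acid oxidation. Of 24 measured, 10 were called (41.7% against 22.4%), all with an amplitude of at least 0.25, and 6 of the 10 peaked around T4. Without the T20 arrays 6 were called, 4 of them around T4. The mean over the 24 genes was highest at T0 (7.20 ± 0.10 SD, against 7.10 ± 0.08 at T4). Cpt1a, the rate-limiting enzyme of fatty acid entry into mitochondria (probe set 1460409_PM_at), had T0 values of 9.95, 9.91, 9.83, 9.82 and 9.90. Its T16 values were 8.95, 8.27, 8.06, 8.08 and 8.23. All T0 arrays lay above all other arrays of the arm, and the level stepped down through T4 (9.52 ± 0.23) and T12 (9.25 ± 0.28) to its minimum at T16. The fitted peak at 3.96 h ± 0.619 (amplitude 0.57 ± 0.09, adjusted p = 8.48e-06) lay later than the highest mean, and the departure from a cosine also passed (adjusted p = 0.00792).

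Angptl4, a secreted lipase inhibitor and target of the fatty acid receptors, moved alike. Its values at T0 were 9.39, 9.45, 9.12, 9.21 and 9.07, and at T16 they were 8.21, 6.76, 7.86, 7.21 and 7.81. The T0 and T16 arrays did not overlap, and the amplitude was 0.57 ± 0.11 with a peak at 3.39 h (adjusted p = 0.000453). The muscle isoform Cpt1b peaked at 3.87 h, the oxidation enzymes Acadl at 2.88 h and Ech1 at 3.90 h, and the lipid droplet coat Plin2 at 4.37 h. The ketone-using enzyme Oxct1 and the thioesterase Acot2 peaked at 18.6 h and 19.4 h, away from the rest. Pdk4 and Ucp3, well-known genes of fasting, and the receptor genes Ppara and Ppard were not called.

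Some lists were called at shares near the background, so their counts do not set them apart. Of 77 oxidative phosphorylation genes 14 were called (18.2%), and 13 of the 14 peaked around T4 or T8. Without the T20 arrays 7 were called, 3 around T0 and 4 around T4, and with the replicate number as a block 9 were called, 1 of them around T8. In 68 of the 77 the T0 mean lay above the gene's own mean over the 6 times, and at T20 in 8 of 77, beside 6614 and 5924 of all 11853 genes. The mean over these genes was 8.55 ± 0.22 (SD, 5 arrays) at T0 and 8.27 ± 0.19 at T20, and the arrays of these times overlapped. Ndufa9, a subunit of complex I, had the largest amplitude (0.44, peak 7.55 h). Cytosolic ribosomal proteins had 16 of 69 called (23.2%), with 14 of them around T4 or T8, and small amplitudes (median over the list 0.08). Rpl36a was the largest of those around T4 (amplitude 0.31, from 9.97 ± 0.24 at T4 to 9.25 ± 0.17 at T20). Only 2 of the 69 were called when the T20 arrays were left out, and 8 with the replicate number as a block. Proteasome subunits had 10 of 42 called (23.8%), 7 around T4, but 6 without the T20 arrays. Splicing factors had 18 of 68 (26.5%), 7 around T4, but 11 with the block.

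Psmb7, a catalytic subunit of the proteasome, stood out among these by its size. Its T0 values were 8.99, 8.33, 8.03, 8.47 and 8.36, and its T12 values were 5.36, 6.87 and 7.19 (lowest, median and highest of 6 arrays). T0 and T12 did not overlap, while the T4 arrays spread from 7.19 to 8.93, and the amplitude was 0.85 ± 0.15 (peak 2.44 h, adjusted p = 3.94e-05). The rhythmic gene of largest amplitude around T4 was Vipr2, a receptor of the neuropeptide VIP (1.08, from 7.74 ± 0.59 at T8 to 5.33 ± 0.39 at T16, adjusted p = 4.79e-09). It was followed by the chemokine Ccl27a (0.88), Psmb7, the homeodomain protein Hopx (0.74), the imprinted zinc finger gene Zim1 (0.69) and the tubulin Tubb3 (0.68). Pfkfb3, which makes an activator of glycolysis, peaked at 3.54 h ± 0.635 (amplitude 0.53, adjusted p = 1.42e-05). Nfe2l2, the regulator of antioxidant genes, peaked at 2.86 h (0.36), and its target Gsta4 at 15.3 h (0.52).

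Actin and SRF target genes, which build the contractile cytoskeleton, had 10 of 19 called (52.6%), with 4 around T4, 3 around T8, 2 around T0 and 1 around T20. The myosin light chain Myl9 peaked at 8.40 h (amplitude 0.46) and the tropomyosins Tpm1 and Tpm2 at 7.13 h and 9.02 h, while Ankrd1 peaked at 0.750 h and Acta2 was not called (adjusted p = 0.151). Ccn2, a matricellular target of TGF-beta and YAP, rose from 4.66 ± 0.42 at T0 to 6.32 ± 0.52 at T8 and was back at 4.65 ± 0.16 at T16 (amplitude 0.74 ± 0.11, adjusted p = 1.65e-06). Smad7, the inhibitor of the same pathway, peaked at 7.56 h (0.36). Thbs4 (1.02, peak 8.10 h), Postn (0.74, 6.50 h), Tnc (0.57, 8.09 h) and Prg4 (0.84, 9.74 h) are matrix proteins abundant in tendon or joint tissue. The mean over 5 tenocyte markers was 6.68 ± 0.45 at T8 and 5.59 ± 0.14 at T20, with array ranges of 6.26 to 7.38 and 5.39 to 5.74. Scx and Tnmd, the defining tenocyte genes, averaged 5.79 and 4.86 in the arm. With the tenocyte mean as a covariate, added after the data were seen, the rhythm calls of Postn, Prg4, Tpm1 and Tpm2 were lost. Those of Tnc, Ccn2, Smad7, Myl9 and Thbs4 passed, Thbs4 being itself a member of that mean, and 1 of the actin and SRF target genes then peaked around T8. The Prg4 call was lost when any of 8 single arrays was left out.

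The chemokines Cxcl1, Ccl7 and Cxcl14 peaked at 8.15 h, 8.61 h and 11.1 h, and 8 of 21 chemokine, cytokine and NF-kB genes were called (38.1%). Genes of the cell cycle were split. Cdc25b, a phosphatase that opens mitosis, was high from T0 to T12 and low at T16 (5.66 ± 0.11) and T20 (5.41 ± 0.29), with a peak at 6.44 h (amplitude 0.53, adjusted p = 4.99e-07). Wee1, a kinase that holds mitosis back and a known clock target, peaked at 11.1 h ± 0.778 (0.59, from 6.42 ± 0.60 at T0 to 8.12 ± 0.32 at T12). Cdkn1a, the cell cycle inhibitor p21, peaked at 17.8 h (0.25, adjusted p = 5.17e-06). Only 3 of 23 G1/S genes (13%) and 5 of 17 G2/M genes (29.4%) were called, and Mki67, the marker of cycling cells, was dim (5.33 ± 0.51 at T0 and 4.54 ± 0.28 at T20).

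Glucocorticoid-induced genes were called in 12 of 16 (75% against 22.4%), 8 of them with a peak around T12. The count around T12 was 3 without the T20 arrays (7 then peaked around T8), 3 in a rank-based fit, 3 with the Schwann cell mean as a covariate and 5 with array weights, while 9 to 12 of the 16 were called under the 14 alternative settings. Sgk1, Pdk4, Nfkbia and Foxo1 were not called. Fkbp5, Zbtb16, Tsc22d3, Klf15 and Ddit4 had the largest amplitudes, but a cosine described some of them poorly, because they were low at T0 and close to level at the other times. In 7 of the 16 the departure from a cosine passed, against 1.81% of all genes. Among insulin and FOXO target genes 7 of 15 were called (46.7%), with Irs1 at 4.97 h (amplitude 0.40), Sesn1, an inhibitor of mTORC1, at 12.2 h (0.52) and the cyclin Ccng2 at 20.7 h (0.50). The immediate early gene Nr4a2, a nuclear receptor, peaked at 13.5 h ± 0.593, from 9.03 ± 0.32 at T0 to 10.20 ± 0.26 at T16 (amplitude 0.50, adjusted p = 2.44e-06). The largest amplitudes around T12 belonged to the fast troponin gene Tnnc2 (1.19), Zbtb16 (0.96), the Notch target Hes7 (0.94), Tsc22d3 (0.93), Fam107a (0.92) and Tenm2 (0.91). Tnnc2 is a myofibre gene. Its SD within a time reached 1.504 at T0, and 2 of 11 myofibre markers were called (18.2%).

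Around T16 the genes of largest amplitude were Fmo2, a flavin monooxygenase (1.14), the zinc finger gene Zfp949 (0.92), Dhh (0.81), Abat (0.77), Efhd1 (0.73) and the sterol exporter Abcg1 (0.60). Fmo2 rose from 6.98 ± 0.64 at T0 to 9.58 ± 0.46 at T16 (adjusted p = 2.84e-08), and all 5 T16 arrays lay above those of T0, T4, T8 and T20. Dhh, a hedgehog ligand secreted by Schwann cells, went from 5.98 ± 0.30 at T0 to 7.69 ± 0.22 at T16 (adjusted p = 5.69e-08), and the mean over Schwann cell markers from 8.15 ± 0.18 to 8.75 ± 0.15. Abat, which breaks down the transmitter GABA, went from 7.59 ± 0.30 at T4 to 9.03 ± 0.18 at T16 (adjusted p = 1.04e-09).

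Of 23 unfolded protein response genes, which serve folding in the endoplasmic reticulum, 6 were called (26.1%, near the background share), with Herpud1 and Ddit3 at 11.1 h and 14.3 h, Creld2 at 15.3 h, and the folding proteins Hsp90b1 at 19.4 h, Pdia6 at 19.8 h and Pdia4 at 21.1 h. Their amplitudes were 0.20 to 0.27. Heat shock genes were rhythmic in 3 of 18 (16.7%), Cryab at 12.7 h, Hspa4l at 18.7 h and Dnajb1 at 19.2 h. In 17 of the 18 the T16 mean was above the gene's own mean and in 3 at T4, beside 5670 and 6139 of all 11853 genes, but the differences were small, and the inducible Hspa1b had an adjusted p of 0.0504. The core of the heat shock element (GAANNTTC, both strands) occurred in the promoter windows of 9 of 15 heat shock genes. It occurred in 9.04% of all 27025 genes with a window and in 7.15% of the 9543 tested genes with a window. Among autophagy and lysosome genes 9 of 28 were called (32.1%). Tfeb and Mitf, transcription factors of lysosomal genes, peaked at 13.3 h and 12.7 h, Becn1 at 15.9 h, the kinase Ulk1 at 19.1 h and the proteases Ctsl and Ctsb at 20.5 h and 20.6 h.

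Around T20 the largest amplitudes after Arntl were those of the secreted C1qtnf3 (0.89), Mrln, a micropeptide that inhibits the calcium pump of the sarcoplasmic reticulum (0.82), Crybg1 (0.79), Ttc7b (0.78) and the receptor tyrosine kinase Ret (0.67). Mrln rose from 6.76 ± 0.50 at T8 to 8.53 ± 0.33 at T20 without overlap (adjusted p = 6.21e-10). Of 24 matrix and adhesion genes 11 were called (45.8%), in separate parts of the day. Loxl1, which crosslinks elastin, peaked at 21.4 h (amplitude 0.48) together with Hspg2, Sparc, Mmp14 and Lamc1, which peaked from 20.8 h to 21.4 h. Postn, Tnc, Timp3, Dcn, Lamb1 and the laminin receptor Itga6 (0.65) peaked from 6.50 h to 13.7 h.

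**Figure D3:**
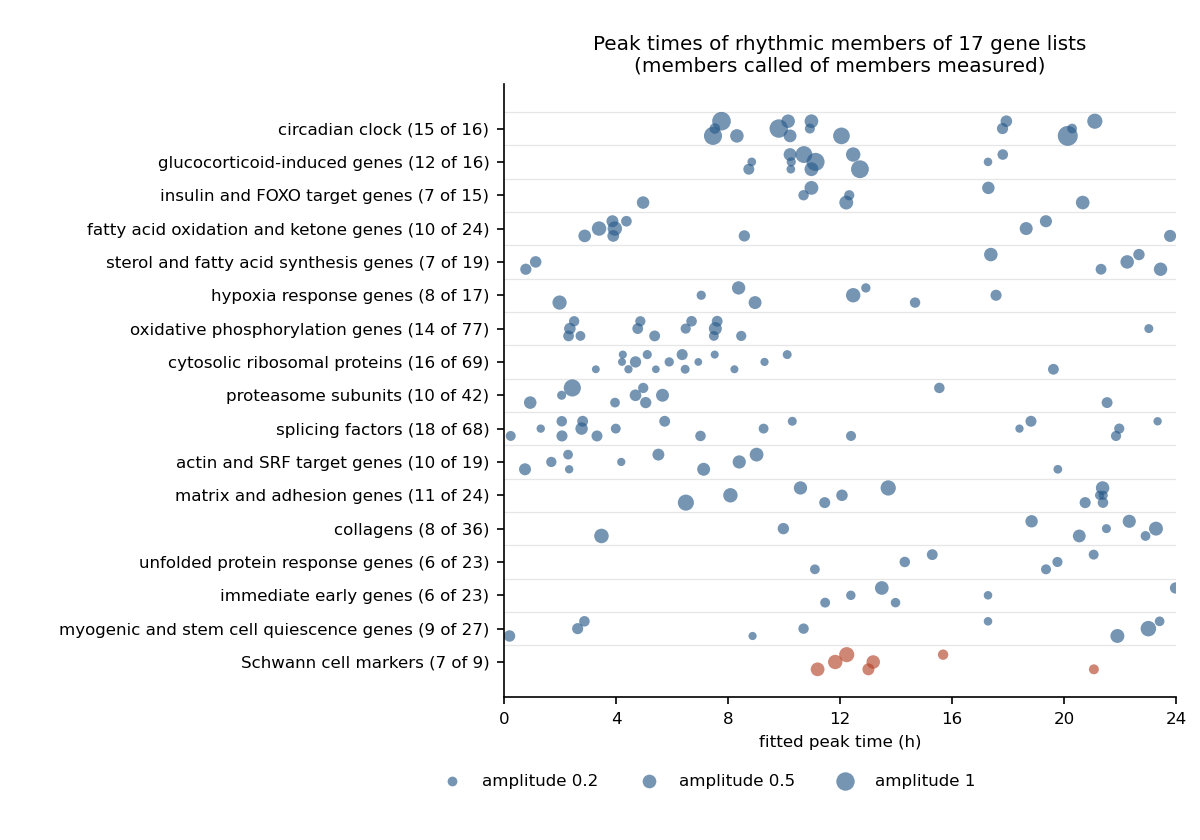
Fitted peak time of the rhythmic members of 17 gene lists in the adult calorie-restricted arm, with 1 dot per gene, dot size growing with amplitude and Schwann cell markers in red. By fitted peak, clock genes fall in the middle and late day, 8 of 12 glucocorticoid-induced genes around T12, 6 of 10 fatty acid oxidation genes around T4, and 13 of 14 oxidative phosphorylation genes around T4 or T8. The last list was called at 18.2%, below the 22.4% of all genes. List means of fatty acid oxidation (7.20) and oxidative phosphorylation genes (8.55) were highest at T0. Glucocorticoid-induced genes as a list were low at T0 and close to level afterwards.

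The sharpest feature of the day curve was T0. Each time was set against the mean of the other 5, a comparison added after the data were seen. T0 differed in 1128 genes (9.52%), 560 higher (4.72%) and 568 lower (4.79%). T4 differed in 459 (3.87%), T8 in 243 (2.05%), T12 in 429 (3.62%), T16 in 433 (3.65%) and T20 in 461 (3.89%). Departure from a cosine passed in 215 genes (1.81%), and 86 of these were lowest and 45 highest at T0. In 22 genes (0.186%) all T0 arrays lay below the other 27, and in 8 (0.0675%) above them. The genes below were Adam23, Adh1, Cables1, Cd200, Erbb3, Fkbp5, Foxo3, Itpr3, Jade2, Jdp2, Mal, Map3k6, Pacsin2, Peli2, Per1, Per2, Pik3r1, Plekhf1, Sorbs3, Tsc22d3, Usp54 and Zbtb16. Those above were Adam19, Cd34, Cpt1a, Cryba2, Fgfr4, Nckap5l, Nppc and Pcdh18. The count of 1128 fell to 747 without replicate 1 of T0, and was between 747 and 1147 over all omissions of a single array.

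Fkbp5, a co-chaperone that glucocorticoids induce and that restrains their receptor, was the plainest case (probe set 1448231_PM_at). Its T0 values were 5.71, 6.02, 7.01, 6.60 and 7.43. At T4 they were 8.52, 8.98 and 9.60 (lowest, median and highest of 6 arrays), and at T20 8.51, 8.50, 9.09, 9.11 and 8.10. Every T0 array was below every other array of the arm. The difference of T0 from the mean of the other times was -2.36 ± 0.19 (SE) on the log2 scale (limma adjusted p = 2.74e-17).

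Zbtb16, a transcription repressor induced by the same hormone, had T0 values of 6.29, 6.99, 7.38, 6.31 and 8.48. All other arrays of the arm were at 9.02 or above. Its difference at T0 was -2.82 ± 0.24 (adjusted p = 1.06e-15). Tsc22d3, the glucocorticoid-induced leucine zipper, had T0 values of 6.42, 6.91, 6.71, 7.02 and 7.20. It stood at 8.92, 9.28 and 9.52 (lowest, median and highest of 6 arrays) at T12. The T0 arrays again lay below all others, and the difference was -2.03 ± 0.18 (adjusted p = 5.03e-15).

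Beside 4.79% of all genes lower at T0 and 4.72% higher, 10 of the 16 glucocorticoid-induced genes were lower and none was higher. No member's T0 mean lay above its own mean over the day. The other 7 of the 10 were Klf15 (-1.36), Ddit4 (-1.06), Per1 (-0.76), Klf9 (-0.39), Errfi1 (-0.31), Cebpd (-0.30) and the metallothionein Mt1 (-0.30). Of the insulin and FOXO targets 5 of 15 were lower and none higher, with Klf15, Sesn1 (-0.75), Foxo3 (-0.71), Trib1 (-0.38) and the insulin receptor Insr (-0.38). Pik3r1, the regulatory subunit of PI3 kinase, was lower (difference -0.79 ± 0.09, limma adjusted p = 2.34e-10), as was Map3k6, a stress kinase (-1.50 ± 0.14, adjusted p = 2.21e-14). Among clock genes, Per2 (-1.52), Per3 (-0.97), Dbp (-0.82), Per1, Cry2 (-0.65), Tef (-0.56), Hlf (-0.43) and Nr1d2 (-0.37) were lower and Npas2 (0.69) higher. Of 17 hypoxia response genes 5 were lower, among them the collagen hydroxylase P4ha2 (-1.14) and Epas1 (-0.70), and Vegfa was higher (0.41).

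**Figure D4:**
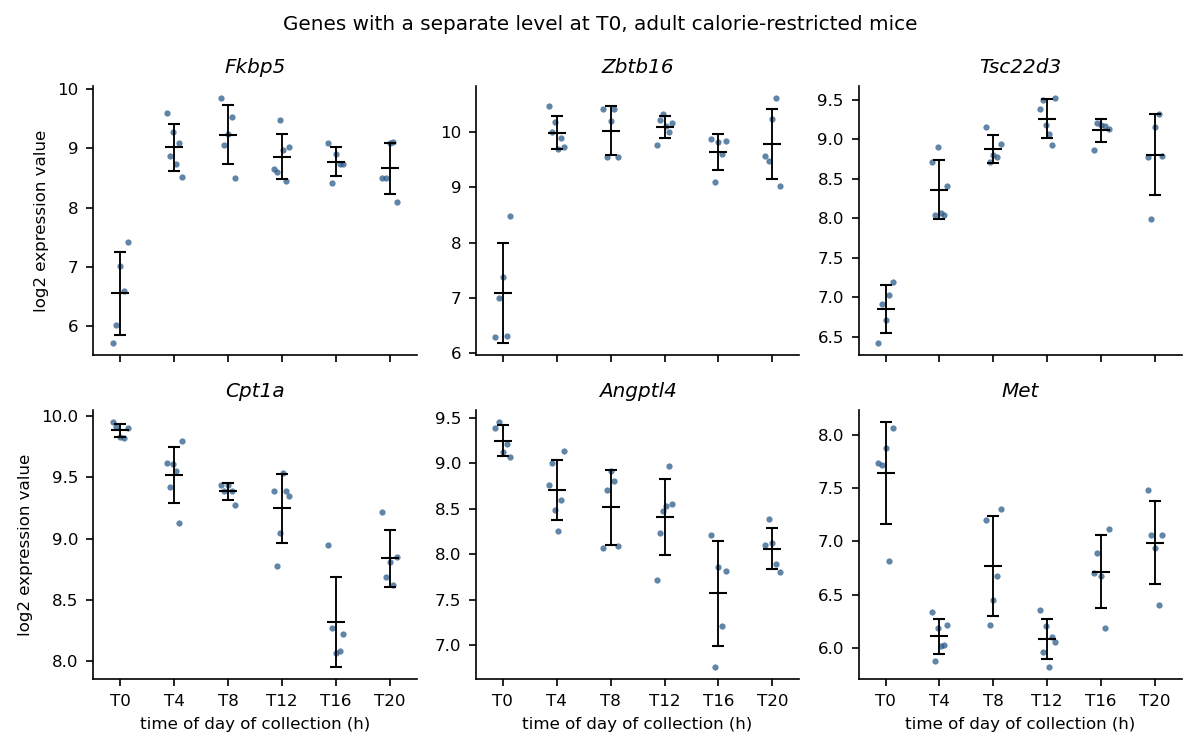
Log2 value of Fkbp5, Zbtb16, Tsc22d3, Cpt1a, Angptl4 and Met against time of day in the adult calorie-restricted arm, with 1 point per array and black mean ± SD. In the first 3 genes the 5 T0 arrays lie below all others, and in Cpt1a they lie above all others.

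Among the genes higher at T0 were some of fat use and of the myogenic program. Over all genes, 4.72% were higher at T0 and 4.79% lower. Of 24 fatty acid oxidation genes 6 were higher and none lower, Angptl4 (1.00 ± 0.19, adjusted p = 0.000111), Cpt1a (0.82 ± 0.15, adjusted p = 3.51e-05), Acadl (0.66), Ech1 (0.54), Etfdh (0.52) and Acads (0.29). Of 27 myogenic and stem cell genes 9 were higher and 2 lower, with a median difference over the list of 0.22 against 0.026 over all genes. The higher ones were Myog, the fusion gene Mymk (1.54), the receptor Met, Cd34 (0.82), Pax3 (0.50), Cdh15 (0.42), Spry1 (0.37), Fgfr4 (0.33) and Itga7 (0.28). Foxo3 and Sdc4 (-0.15) were the lower ones.

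Met, the receptor of hepatocyte growth factor, which wakes quiescent muscle stem cells, had T0 values of 7.74, 7.72, 7.88, 6.82 and 8.07. At T4 they were 5.87, 6.10 and 6.33 (lowest, median and highest of 6 arrays), and at T12 5.82, 6.08 and 6.35 (lowest, median and highest of 6 arrays). The T0 arrays lay above all T4 and T12 arrays and overlapped with T8, T16 and T20 (difference 1.11 ± 0.18, limma adjusted p = 7.91e-06). Myog, the factor of terminal muscle differentiation, had T0 values of 6.57, 4.84, 7.03, 8.02 and 5.22. At T16 they were 3.56, 4.49, 4.27, 4.15 and 4.13. Its T0 arrays varied widely and overlapped with T8, T12 and T20 (difference 2.01 ± 0.40, adjusted p = 0.000234). The cosine call of Myog (adjusted p = 0.0470) was lost when any of 14 single arrays was left out.

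Markers of other cell types also changed through the day. In RNA of bulk samples, fewer cells of a type and less RNA per cell cannot be told apart. Of the 9 measured Schwann cell markers 7 were rhythmic (77.8%, against 22.4% of all genes). Lower at T0 were 5 (against 4.79% of all genes), Sox10 (-1.30), Erbb3 (-1.25), Cnp (-1.13), Mbp (-0.80) and Pmp22 (-0.50). The mean over the 9 markers was 8.15 ± 0.18 (SD) at T0, with arrays from 8.03 to 8.45, and 8.83 ± 0.13 at T12, with arrays from 8.65 to 8.99. Erbb3, Cnp, Sox10, Pmp22 and Mbp had fitted peaks from 11.2 h to 13.2 h. Of the 12 called glucocorticoid-induced genes, 8 also had a fitted peak around T12. Their list was low at T0 and close to level afterwards, with a mean of 8.87 at T0 and 9.56 to 9.76 at the other times. S100b and Ncam1 peaked at 15.7 h and 21.1 h. With the mean over the 9 Schwann cell markers as a covariate, T0 differed from the other times in 606 genes, and 2047 of the 2650 rhythmic genes were called again. With this covariate, 10 of the 16 glucocorticoid-induced genes were lower at T0 and 9 rhythmic, of which 4 peaked around T8, 3 around T12, 1 around T16 and 1 around T20. Clock genes were rhythmic in 14 of 16 and lower at T0 in 5, fatty acid oxidation genes were higher at T0 in 3 and myogenic genes in 8.

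Muscle stem cell markers moved the other way. Of 13 measured 5 were higher at T0 (against 4.72% of all genes) and Sdc4 lower. Their mean was 9.66 ± 0.15 at T0, 9.44 ± 0.03 at T4, 9.27 ± 0.22 at T16 and 9.51 ± 0.07 at T20, with arrays from 9.42 to 9.83 at T0 and 8.98 to 9.56 at T16. Of these markers 5 were rhythmic (38.5%), Cd34, Cdh15, Pax7 (2.87 h, amplitude 0.25), Sdc4 and Fgfr4, while Myf5, Myod1, Calcr, Itga7, Vcam1, Chrdl2, Spry1 and Des were not called. The mean of the pericyte and smooth muscle markers was 8.53 ± 0.41 at T0, 9.19 ± 0.14 at T8 and 8.65 ± 0.09 at T20, and of the 7 measured only Rgs5 was lower at T0 (-1.16). The mean of the endothelial markers was highest at T16 (5.93 ± 0.13, against 5.62 ± 0.07 at T4), as was that of the macrophage markers (5.95 ± 0.04, against 5.61 ± 0.12). The part of these cell types in the day curves was not tested beyond the covariates named.

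**Figure D5:**
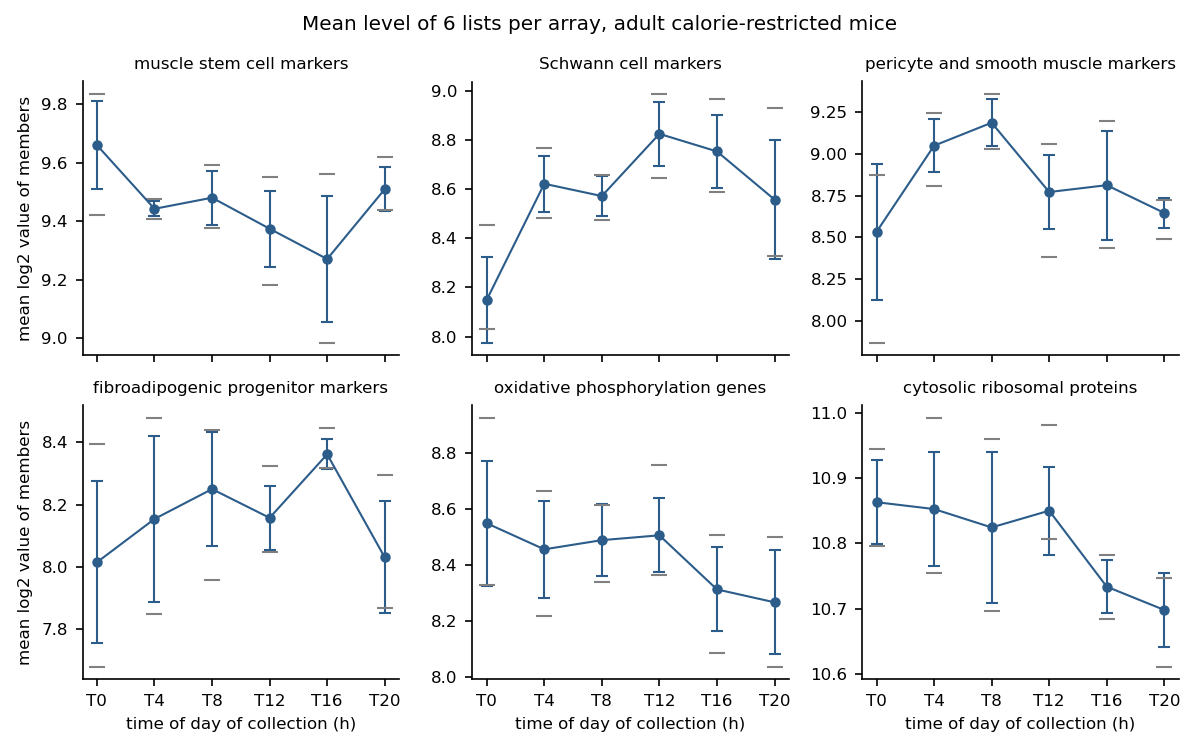
Mean log2 value over the members of 6 lists against time of day, with the point giving the mean over the 5 or 6 arrays of a time, blue bars the SD and grey ticks the lowest and highest array. The Schwann cell markers are lowest at T0 (8.15) and highest at T12 (8.83), and the muscle stem cell markers run from 9.66 at T0 to 9.27 at T16.

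Whether these curves differ from those of other arms was tested against the adult control and the aged restricted arm. No count of differences from the aged control arm is given here. The comparisons with the adult control and with aged restriction share the adult restricted arrays, so they are not independent of each other. In limma's F test of the cosine and sine differences, 3 genes (0.0253%) differed from adult control and 1 (0.00844%) from aged restriction, while 765 and 1169 had an unadjusted p below 0.05. Sphk2 peaked at 7.99 h ± 0.244 with an amplitude of 1.52 ± 0.10 under restriction and at 10.1 h ± 0.24 with 1.85 ± 0.13 in adult control (adjusted p = 0.000150). Dhrs3, a retinal reductase, peaked at 18.8 h ± 0.858 with an amplitude of 0.46 ± 0.11 and in adult control at 0.501 h ± 0.617 with 0.85 ± 0.12 (adjusted p = 0.00144). Dbp peaked at 7.77 h ± 0.369 against 10.1 h ± 0.34 in adult control (adjusted p = 0.0401), and this call was lost when any of 11 single arrays was left out. Fzd7, a Wnt receptor, peaked at 7.39 h ± 1.07 against 19.2 h ± 0.831 in aged restricted cells (adjusted p = 0.0199). The Fzd7 call was lost in 1 omission of a single array and under 5 alternatives, and the Dbp call under 7, while those of Sphk2 and Dhrs3 were lost only in the rank-based fit.

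The other clock genes did not pass. Arntl peaked at 20.1 h ± 0.391 under restriction and 23.3 h ± 0.536 in adult control (adjusted p of the rhythm difference 0.0832), Npas2 at 21.1 h ± 0.345 and 22.9 h ± 0.420 (0.592). Nr1d2 peaked at 7.46 h ± 0.248 and 8.82 h ± 0.307 (0.579), and Per3 at 9.81 h ± 0.399 and 12.1 h ± 0.541 (0.579). Per2 peaked at 12.1 h ± 0.484 and 11.3 h ± 0.662 (0.964). Adult control has a single T20 array, which limits these comparisons.

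The difference at T0 from the mean of the other times, called the T0 step here, was compared between arms as well. In limma its difference between adult restricted and adult control cells passed in 0 genes (0%), with 871 at an unadjusted p below 0.05, and a rank-based fit also called 0. Of the 568 genes lower at T0, 437 had the same sign of the step in all 3 other arms, as did 376 of the 560 higher ones. The share of all genes with the same sign in every arm was not counted, so these counts have no background beside them. For Fkbp5 the step was -2.21 in adult control, -1.98 in aged restriction and -1.77 in aged control, for Zbtb16 -2.79, -2.24 and -2.88, and for Tsc22d3 -1.94, -1.65 and -1.69. For Cpt1a the values were 0.38, 0.57 and 0.09, for Angptl4 0.10, 0.41 and -0.36, and for Met 0.52, 0.59 and 0.59, in the same order. The step of adult restricted cells differed from that of aged restricted cells in 24 genes (0.202%, 1449 unadjusted). Of these, 21 had the more positive step in adult cells. Fndc5, the precursor of irisin, had a step of 0.84 in adult and -0.08 in aged restricted cells (difference 0.92 ± 0.18, adjusted p = 0.0165), and Scd1 -0.26 and 0.42 (adjusted p = 0.0484). Both were chosen after their values were seen. The count of 24 ranged from 2 to 68 when single arrays were left out.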

How the data were processed

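The deposited values are RMA log2 expression values, a normalization that the submitters' processing notes name without a version; the log2 base is inferred from the deposited range of 1.19 to 12.8, since no header states it. RMA compresses differences of dim genes. The platform annotation pairs 28898 of 45141 probe sets with 1 gene symbol, 551 with several and 15692 with none, and 28689 were matched to RefSeq (GRCm38.p6). Dim probe sets, those whose mean fell under the 40th percentile (4.50), were dropped and the brightest was kept per gene, which left 11853 genes. Arrays were grouped by title.

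With limma 3.58.1 in R 4.3.3, a joint fit to the 104 arrays gave every arm its own day mean, cosine and sine of 24 h period (lmFit, then eBayes), and a second fit used 24 means of arm and time. Tests are moderated F tests, or moderated tests of single contrasts, adjusted by Benjamini-Hochberg over the 11853 genes at 5%. Departure from a cosine tests what the 6 means hold beyond the curve. Methods were tested on simulated data.

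The 38 function lists, 12 cell type lists and other choices were made with earlier results of these data known. Named were all clock genes, the 6 largest amplitudes per window, up to 4 rhythmic members per list, the 8 strongest departures, the 2 brightest markers per cell type and all genes with a rhythm difference. Where list counts or T0 differences are given, further members of the lists are named. Within the arm, arrays of the same replicate number at different times had a median residual correlation of 0.006 (76 pairs). With adult control arrays of the same number and time it was 0.046 (21 pairs, -0.097 to 0.178). The labels do not give the day of collection, so the tests between arms treat mice of the same day as independent. Some items are not reported here.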

Additional observations from a re-analysis of the deposited data

Results flagged for a closer look

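The gap of the highest or lowest array to its neighbour, set against the range of its time point, was large in 9 of 96 groups examined over 16 genes. Chance alone gives about 1 in 20. Per2 at T20 had 7.44 in replicate 5, with the others at 7.91 to 8.08. Per3 at T8 had 9.46 in replicate 5, with the others at 8.46 to 8.68, and at T16 it had 7.72 in replicate 1, with the others at 8.19 to 8.34. Nr1d2 at T12 had 9.21 in replicate 3, against 8.68 to 8.86. Replicate 1 of T16 also stood apart in Tsc22d3 (8.86, against 9.14 to 9.21) and Cpt1a (8.95, against 8.06 to 8.27), so that 3 of the 9 cases fell on this array. Scd1 at T8 had 8.39 in replicate 3, with the others within 8.49 to 8.52. Myog at T20 had 6.27 in replicate 3, with the others at 4.20 to 4.61, and Met at T0 had 6.82 in replicate 4, with the others at 7.72 to 8.07.

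The tests of differences between arms (limma, Benjamini-Hochberg) marked the rhythms of Sphk2 (adjusted p = 0.000150), Dhrs3 (0.00144) and Dbp (0.0401) against adult control and that of Fzd7 (0.0199) against aged restriction. They also marked the T0 step of 24 genes against aged restriction.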

How the results depend on the processing

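Limits first. Arrays have no read depth, and their number limits precision. The count of 2650 rhythmic genes stayed within 1.5 times under all alternatives run except a minimum amplitude of 0.25, which left 1526. Apart from that minimum, between 66.0% (without the T20 arrays) and 100% of the 2650 were called again. Without the T20 arrays, matrix and adhesion genes had 7 called members in place of 11, translation factors 7 in place of 11, NRF2 and antioxidant genes 4 in place of 7 and clock modifiers 3 in place of 5. The rhythm calls of Creld2 (5 omissions of a single array), Becn1, Pdia6 and Mre11a (4 each) and Srxn1, Tpm1 and Tpm2 (3 each) were lost, as were the T0 differences of Nr1d2, Hlf, Sesn1 and Sdc4 (3 each) and Cry2 (2). Of 192 named rhythmic genes 140 were called in every omission of a single array, and 103 also under all 14 alternative settings. Without T20 arrays, 299 genes peaked around T20 in place of 460, and the tests of time points, departure and T0 were not run.

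Omitting single arrays gave 2407 (without replicate 1 of T16) to 2616 rhythmic genes, 1147 to 1346 peaking from T0 to T12 and 1213 to 1335 from T12 to T24. It gave 2521 to 2841 genes differing between times, 155 to 245 departures, 2 to 5 rhythm differences to adult control and 0 to 1 to aged restriction. The T0 count ran from 747 to 1147, and the T0 step differences from 0 to 4 and from 2 to 68.

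The tenocyte and fibroadipogenic progenitor scores were added as covariates after the data were seen. Departures numbered 133 in separate fits, 323 with the leading residual component as covariate and 0 in a rank-based fit (1990 unadjusted). The T0 count was 680 with array weights, 606 with the Schwann cell score and 565 rank-based. Rhythm differences to adult control numbered 6 with array weights and 0 rank-based (665 unadjusted). Those to aged restriction numbered 9 with the residual component and 0 with a 60th percentile filter, the mean of a gene's probe sets, array weights, the replicate block, the tenocyte score or without T20 arrays (1086 unadjusted when rank-based). T0 step differences to adult control numbered 3 with added quantile normalization and 1 with the residual component. Those to aged restriction numbered 66 without a filter, 1 with a 60th percentile filter, 12 in separate fits, 0 with array weights, 15 with quantile normalization, 62 with the residual component, 10 with the Schwann score and 3 rank-based. The fitted peak of Cat moved to another part of the day (amplitude 0.0166, adjusted p 0.987, mean of probe sets). The sign of the Pmp22 T0 step turned (0.0255, adjusted p 0.916, Schwann score, of which Pmp22 is a member). Apart from fewer genes or samples under a filter or an omission, the cause was not tested.

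With the replicate number as a block, 2375 genes were rhythmic, 2566 differed between times, 201 departed from a cosine, 2 and 0 differed in rhythm, 1040 differed at T0, and 0 and 17 in the T0 step. The arrays share only a number, and 2 of 32 correlated best with their own number.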

Other observations

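Several gene groups followed the day at or below the share of all genes. Mitochondrial ribosomal proteins had 9 of 72 rhythmic members (12.5%), and 4 of the 9 peaked around T4, with Mrpl52 (0.40, 3.69 h), Mrps5 (0.39, 4.27 h) and Mrpl1 (0.38, 2.95 h) the largest in amplitude. Translation factors had 11 of 49 (22.4%), 5 of them around T4, led by Eif1ad (0.48, 4.22 h) and Eif1ax (0.40, 4.46 h). The cap-binding Eif4e and its inhibitor gene Eif4ebp2 peaked at 20.02 h and 21.2 h. Ribosome biogenesis genes had 4 of 31 (12.9%), and these, Wdr12, Heatr1, Rrp9 and Polr1a, peaked from 6.43 h to 10.6 h. DNA repair genes had 4 of 21 (19.0%), Fancd2, Xrcc5, Lig3 and Mre11a, with peaks from 21.7 h through T0 to 2.42 h. Histone modifiers had 4 of 19 (21.1%), among them the mitochondrial deacetylase Sirt3 at 16.3 h (0.29) and the histone demethylases Kdm5b at 20.8 h and Kdm1a at 22.7 h. Amino acid response genes had 3 of 17 (17.6%), interferon-responsive genes 2 of 16 (12.5%), metal-binding genes 1 of 7 and temperature-responsive genes 1 of 7 (14.3% each).

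Other groups lay above it or close to it. Hypoxia response genes had 8 of 17 (47.1%), from Car12 at 1.98 h (0.55) over P4ha2 at 8.38 h (0.47) and Epas1 at 8.97 h (0.44) to the glucose transporter Slc2a1 at 14.7 h (0.24) and Egln3 at 17.6 h. NRF2 and antioxidant genes had 7 of 17 (41.2%), including Srxn1 at 0.872 h, Gclc at 9.04 h and Gpx4 at 4.43 h. Antigen presentation and complement genes had 6 of 17 (35.3%), led by C2 (0.54, 13.9 h) and C1s1 (0.50, 2.99 h). Notch pathway genes had 5 of 17 (29.4%), with Numb, which restrains Notch, at 1.21 h (0.32) and the receptor Notch1 at 3.96 h. Glycolysis genes had 5 of 18 (27.8%), and TGF-beta and BMP genes 6 of 27 (22.2%). Immediate early genes had 6 of 23 (26.1%) and cell cycle inhibitors 4 of 19 (21.1%). Of the remaining cell type lists, fibroadipogenic progenitor markers had 3 of 7 rhythmic members, endothelial markers 3 of 6, macrophage markers 2 of 4, tenocyte markers 2 of 5, adipocyte markers 1 of 2, lymphocyte markers 1 of 6, erythroid markers 0 of 3 and neutrophil markers 0 of 1.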
